A study of Mus musculus with 16 samples.

Results

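Axon guidance genes encode ligands and receptors that steer growing axons, migrating cells and vessels. The set described here holds 62 of the 16118 genes listed, chosen by gene name: class 3 to 7 semaphorins, plexins, neuropilins, ephrins, Eph receptors, Slits, Robos, netrins and netrin-G genes, Unc5 receptors, Dcc and Neo1. Of these, 59 reached a mean of 1 CPM, a read count scaled to a common library size, over all libraries and were tested, and Dcc, Ntng2 and Unc5d did not. They comprise 19 semaphorins, 9 plexins, 2 neuropilins, 4 ephrin-A and 3 ephrin-B genes, 6 EphA and 5 EphB receptors, 2 Slits, 3 Robos, 3 netrin genes and 6 netrin receptors.

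The study compared 4 double knockout (dKO) with 4 control mouse embryos, harvested at E15.5, in atria and in ventricles. dKO embryos were Meis1flox/flox; Meis2flox/flox; aMHC tg/wt, and control embryos Meis1flox/flox; Meis2flox/flox; aMHC +/+, so all 8 carried floxed alleles of both Meis genes and Cre was present in the dKO embryos only. Cre presence and Meis deletion therefore cannot be told apart. Cre was driven by the alpha myosin heavy chain promoter, which is active in cardiomyocytes, and other heart cells keep both genes. Each embryo gave 1 atrial and 1 ventricular library of polyadenylated RNA after removal of the outflow tract. The design text speaks of a constitutive or inducible deletion without saying which applies here. The protocol describes 4 litters with 1 embryo of each genotype, but the sample titles carry 3 numbers, which hold 1 dKO embryo, 2 dKO and 2 control embryos, and 1 dKO and 2 control embryos. The number with 2 embryos of each genotype is called the balanced title number, and values within it are given where a call was lost there.

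Semaphorins signal through plexins, with neuropilins as co-receptors for most secreted class 3 members. Ephrins are bound to the cell surface and signal through Eph receptors on neighbouring cells, with signals running in both directions. Slits bind Robo receptors, and netrins bind Dcc, neogenin (Neo1) and Unc5 receptors. In the heart these families are known for roles in outflow tract and pulmonary vein patterning, in arterial and venous identity of vessels, and in the ingrowth of autonomic nerves.

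Libraries held 7.88 to 23.0 megareads, so that 3 reads, used as the detection floor, were worth 0.110 to 0.312 CPM. The 4 dKO ventricular libraries were all shallower than the 4 control ones (two-sided exact permutation p = 0.0286, the smallest that 4 against 4 libraries allow). Meis1 averaged 64.5% of the control level in dKO atria and 98.5% in dKO ventricles, and Meis2 105% in dKO atria and 59.6% in dKO ventricles. The tissues matched their labels, with the atrial light chain Myl7 at 3607 and 3437 CPM in dKO and control atria against 196 and 203 CPM in dKO and control ventricles. Irx4, a ventricular transcription factor, averaged 0.252 and 0.343 CPM in dKO and control atria against 56.6 and 81.3 CPM in dKO and control ventricles.

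Several lists of cell type markers moved in dKO atria, and they stand beside every atrial result that follows. The mean log2(CPM + 1) of 7 smooth muscle and pericyte markers was 5.89 to 6.44 in dKO atria and 5.56 to 5.67 in control atria, and 4 of the 7 were called higher. The 7 endothelial markers lay at 6.48 to 6.57 in dKO atria and 6.32 to 6.38 in control atria, where limma and edgeR called none and DESeq2 called 2, and the 6 epicardial markers at 5.73 to 5.94 in dKO atria and 5.39 to 5.72 in control atria, with 1 called higher. The 7 fibroblast markers lay at 7.75 to 8.41 in dKO atria and 7.59 to 7.92 in control atria, with 2 called higher. The 6 cardiomyocyte markers lay at 10.12 to 10.37 in dKO atria and 10.40 to 10.68 in control atria, with 1 called lower. By DESeq2 5 of the smooth muscle and pericyte, 2 of the epicardial, 3 of the fibroblast and 3 of the cardiomyocyte markers were called in atria. The 6 atrial myocyte markers lay at 9.81 to 9.96 in dKO atria and 9.66 to 9.96 in control atria, with 2 called higher and 1 lower. Nppa averaged 5920 CPM in dKO atria against 3827 CPM in control atria, Sln 400 against 248 CPM and Dkk3 166 against 288 CPM. Of the 6 ventricular myocyte markers 3 were called lower and 1 higher in dKO atria, and their mean was lower there by 0.58 on the log2 scale. Myl3 averaged 39.4 CPM in dKO atria against 118 CPM in control atria, Cited1 18.6 against 68.5 CPM and Gja1 73.1 against 193 CPM. Myl2 at 32.0 against 22.5 CPM and Mpped2 at 4.88 against 2.32 CPM went the other way, and Irx4 was under 1 CPM in both. The part of these marker lists in the differences of guidance genes was not tested. In ventricles the endothelial, fibroblast, epicardial and smooth muscle lists differed by at most 0.07 on the log2 scale, and the ventricular myocyte list was lower in dKO by 0.35 with no overlap between groups. The atrial myocyte list was higher there by 0.33 as a mean and 0.08 as a median, with overlapping groups (two-sided exact permutation p = 0.0571), and 2 of its 6 genes were called, Nppa with means of 2722 CPM in dKO ventricles against 744 CPM in control ventricles, and Myl4 with 1390 CPM in dKO against 1011 CPM in control. Macrophage markers were higher in dKO atria by 0.33, with 1 of 7 called, and erythroid markers in dKO ventricles by 0.32, with none of 6 called by limma, edgeR or DESeq2 and 3 at an unadjusted limma p under 0.05, and both lists overlapped between groups. Of 8 autonomic neuron and glia markers 3 averaged under 1 CPM in atria and 7 in ventricles. In bulk tissue, fewer cells of a type and less RNA per cell cannot be told apart.

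Levels per kilobase of merged exon served as a rough scale for comparing genes with each other. Merged exons hold every annotated exon, 25433 bases for Slit2 and 6067 for Slit3, and can exceed the transcript in use. Order and shares on this scale depend on that annotation. Levels spanned 0.0369 CPM per kilobase for Dcc to 38.7 for Plxnd1 as means over the 16 libraries. The 4 highest of these pooled means belonged to receptors. Plxnd1, the receptor of the vascular semaphorin Sema3e, was followed by Plxnb2 at 32.2, by Ephb4, the venous receptor of ephrin-B2, at 28.8, and by the netrin receptor Unc5b at 23.8. The best represented ligands were Ntn1 at 20.4, Efnb1 at 18.8 and Efnb3 at 18.7 CPM per kilobase. The order differed between groups, and in each group a ligand stood above at least 1 of these receptors. In control ventricles Efnb3 at 35.8 and Ntn1 at 29.4 stood above Ephb4 at 25.996 and Unc5b at 26.4. In dKO ventricles Ntn1 at 30.3 stood above Ephb4 at 25.1 and Unc5b at 26.2. In control atria Efnb1 at 21.9 and Slit3 at 21.2 stood above Unc5b at 19.3. In dKO atria Efnb1 at 27.3 stood above Unc5b at 23.1. Neo1 stood at 14.6, the neuropilins Nrp1 and Nrp2 at 11.4 and 2.996, and the ephrin-A genes Efna1 and Efna5 at 11.03 and 7.73. Among EphA receptors Epha4 and Epha7 led the pooled means at 9.91 and 5.35, although Epha7 stood above Epha4 in dKO ventricles (4.58 against 3.03) and in control ventricles (3.84 against 2.01), and among EphB receptors Ephb3 followed Ephb4 at 5.48. Slit3 and Slit2 stood at 9.83 and 2.86, Robo4 and Robo1 at 3.45 and 2.59, and Ntn4 at 5.74 CPM per kilobase. Of the semaphorins Sema6d at 8.10 and Sema4c at 6.44 had the highest pooled means and Sema3e the lowest at 0.165. Sema3d at 7.05 was above both in dKO atria, and Sema7a at 7.46 in dKO ventricles, while in control ventricles Sema7a at 7.45 lay between them.

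**Figure D1:**
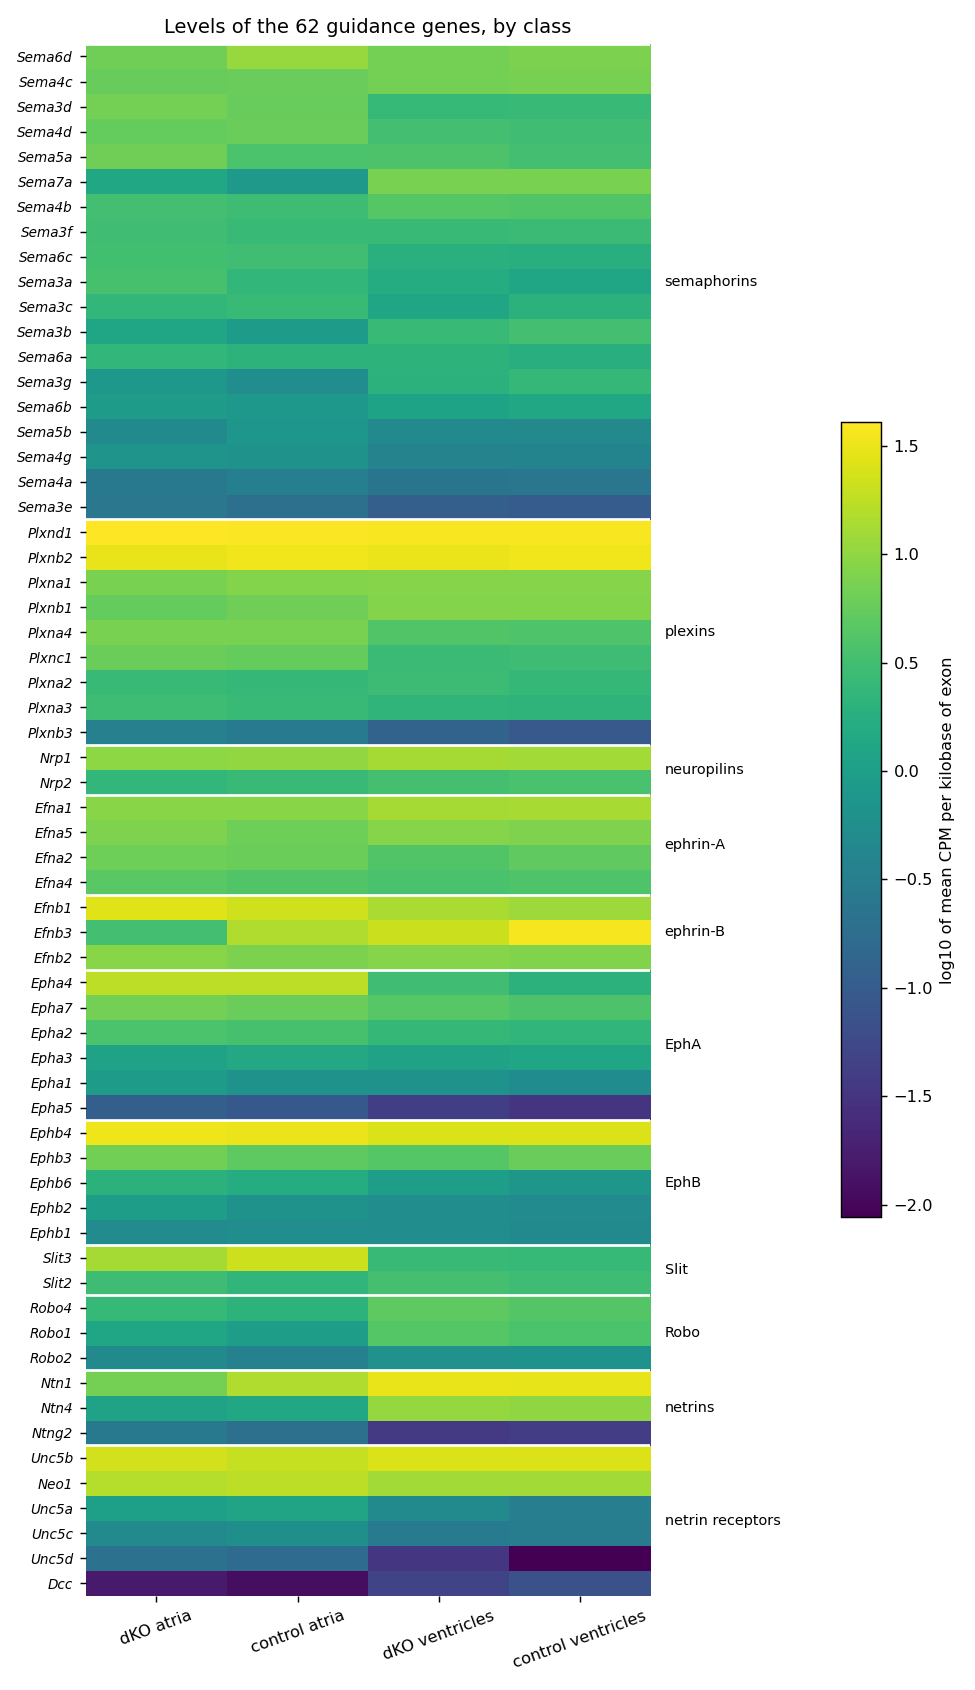
Mean level of each of the 62 guidance genes in dKO atria, control atria, dKO ventricles and control ventricles, as log10 of CPM per kilobase of merged exon (colour), grouped by class. Plxnd1, Plxnb2, Ephb4 and Unc5b are bright in all 4 columns, while Efnb3, Ntn1, Slit3 and Epha4 change colour between columns.

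In dKO atria the guidance genes moved in both directions, with ligands at both ends. Efnb3, Ntn1, Sema6d and Slit3 fell, and Sema5a, Sema3a, Ephb3, Efnb1 and Efnb2 rose. By limma's moderated test on log2(CPM + 1), adjusted over all genes tested and called at an adjusted p under 0.05, 10 of 59 members (16.9%) were called, against 7.47% of all 13950 genes. Of these 5 were higher and 5 lower in dKO, where 4.04% of all genes were called higher and 3.43% lower. Ligands made up 8 of the calls, out of 30 tested, and receptors 2 out of 29, a difference that was not itself tested. The median log2 difference over the 59 members was 0.10, against -0.0046 over all genes. In 15 members (25.4%) the dKO and control libraries did not overlap, 9 with dKO above every control and 6 below, against 14.1% of all genes without overlap. The other 49 members had log2 differences from -0.62 (Sema5b) to 0.51 (Sema7a). Among the embryos of the balanced title number, 8 of the 10 were called, with log2 differences of -2.10 for Efnb3, -1.32 for Ntn1, -0.76 for Sema6d, -0.69 for Slit3, 0.85 for Sema5a, 0.59 for Sema3a, 0.41 for Ephb3 and 0.29 for Efnb1. dKO atria 1 and 4 were more often the lowest of the dKO atria than the others. Of 59 members, atrium 1 was the lowest of its group in 24 and the highest in 18. Atrium 4 was the lowest in 23 and the highest in 19, against 4 and 17 for atrium 2 and 8 and 5 for atrium 3. Atria 1 and 4 were also the shallower libraries, at 14.3 and 15.2 megareads against 18.9 and 19.3 for atria 2 and 3. The part of depth was not tested. dKO embryo 1 is the only embryo of its title number, with no control beside it. Without dKO embryo 1 the count of called members was 10, and without dKO embryo 4 it was 15.

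**Figure D2:**
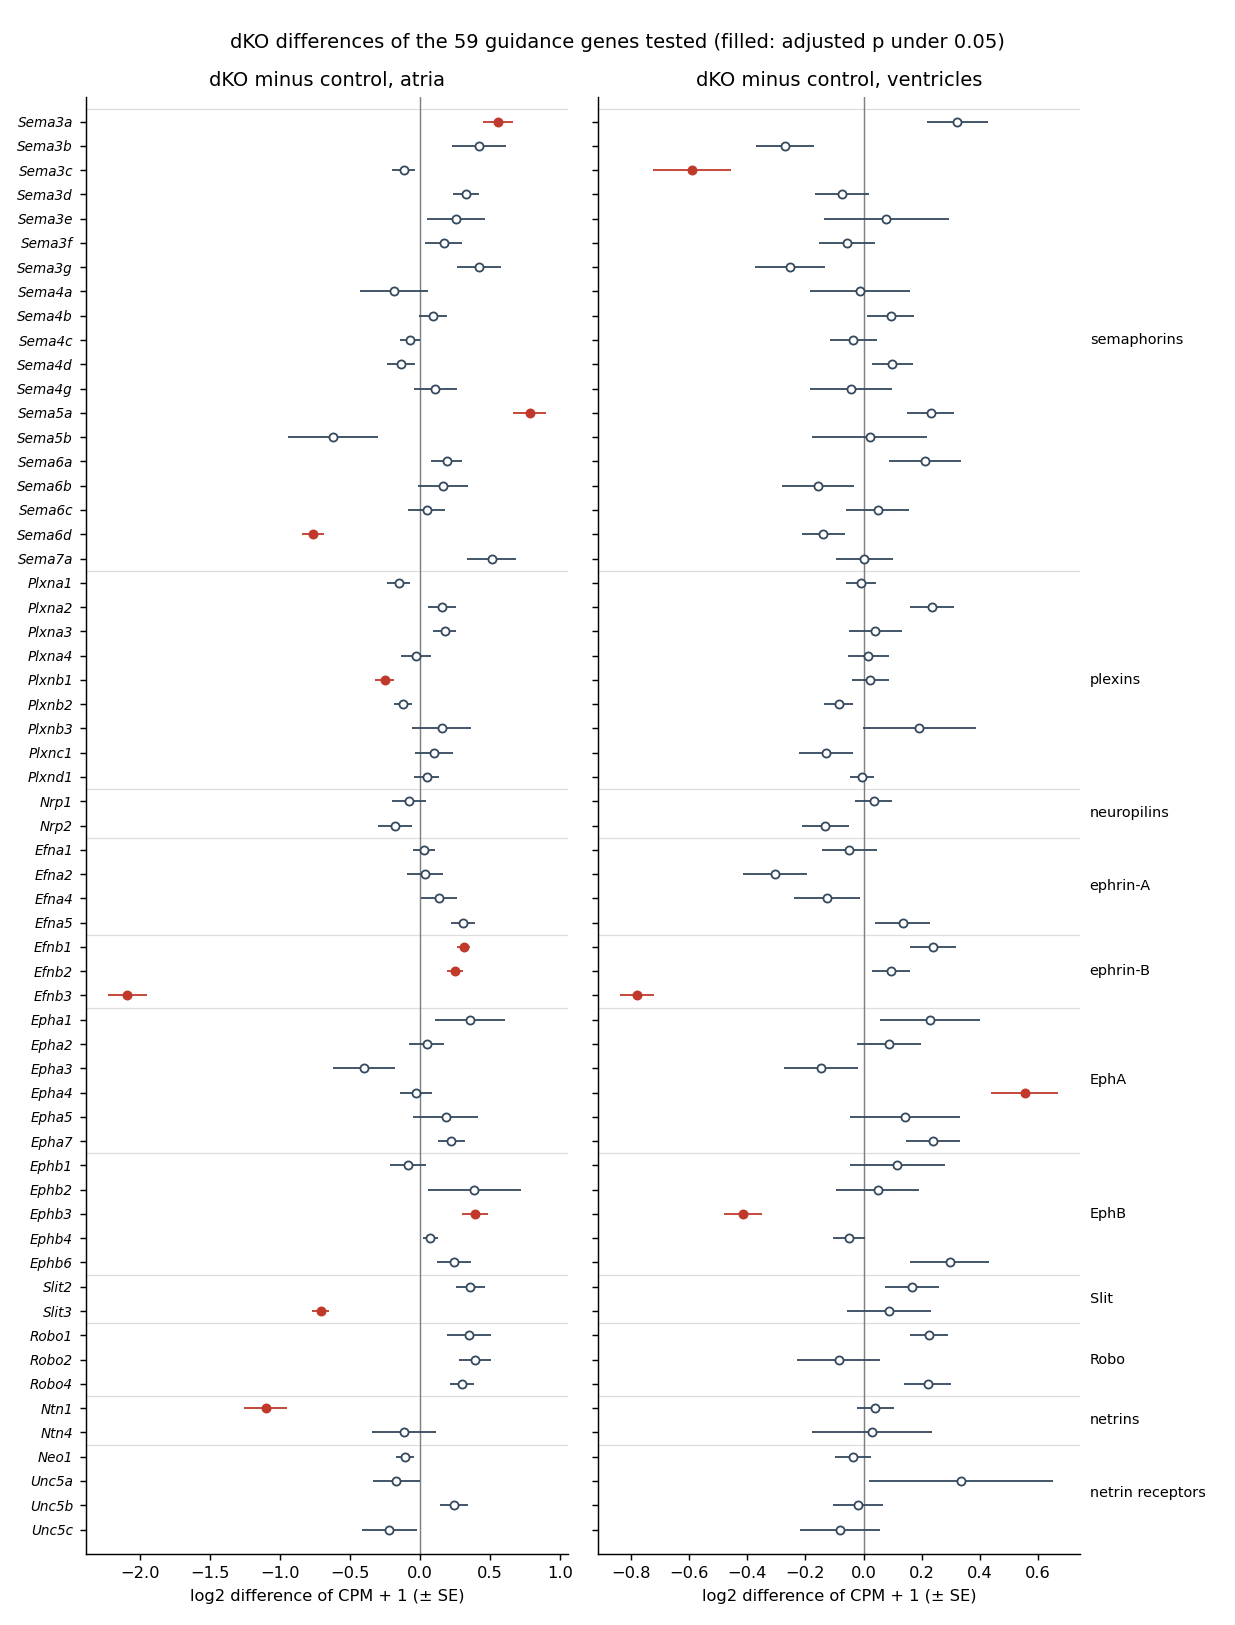
log2 difference of CPM + 1, dKO minus control (points, with bars of 1 standard error from limma), for the 59 guidance genes tested in atria (left) and ventricles (right). The 2 panels have different horizontal scales. Filled points passed an adjusted p of 0.05: 10 in atria, where Efnb3 lies farthest from 0 at -2.09, and 4 in ventricles, where it lies at -0.78.

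Ephrin-B genes encode transmembrane ligands that also signal into the cell that carries them. All 3 were called in dKO atria. Efnb3 (ENSMUSG00000003934; chr11:69554092-69560205 on GRCm38, minus strand) stood at 7.58, 9.62, 11.3 and 13.1 CPM in dKO atria, against 45.8, 50.6, 40.4 and 51.7 CPM in control atria. The highest dKO atrium lay well under the lowest control atrium. The mean was 10.4 ± 2.38 CPM in dKO and 47.1 ± 5.17 CPM in control (SD, n = 4 each), a log2 difference of -2.09 ± 0.14 (SE; limma adjusted p = 8.85e-06). Efnb1, on the X chromosome, moved the other way and varied little within groups. It stood at 94.0, 91.8, 94.3 and 96.5 CPM in dKO atria, against 76.5, 75.4, 75.0 and 75.8 CPM in control atria. The groups did not overlap, with a log2 difference of 0.31 ± 0.04 (limma adjusted p = 0.00155). Efnb2, which marks arterial endothelium and pairs with venous Ephb4, stood at 59.2, 61.94, 61.96 and 65.5 CPM in dKO atria, against 53.9, 54.1, 51.4 and 49.2 CPM in control atria. Its groups did not overlap either, and the log2 difference was 0.25 ± 0.06 (limma adjusted p = 0.0200), but the call was lost without dKO replicate 2 or 3, without control replicate 3 or 4, and among the embryos of the balanced title number alone (log2 difference 0.19, adjusted p = 0.105). As a share of the summed CPM per kilobase of the 3 genes, Efnb3 made up 8.22% ± 1.58 in dKO atria and 33.3% ± 2.49 in control atria, with no overlap between libraries.

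**Figure D3:**
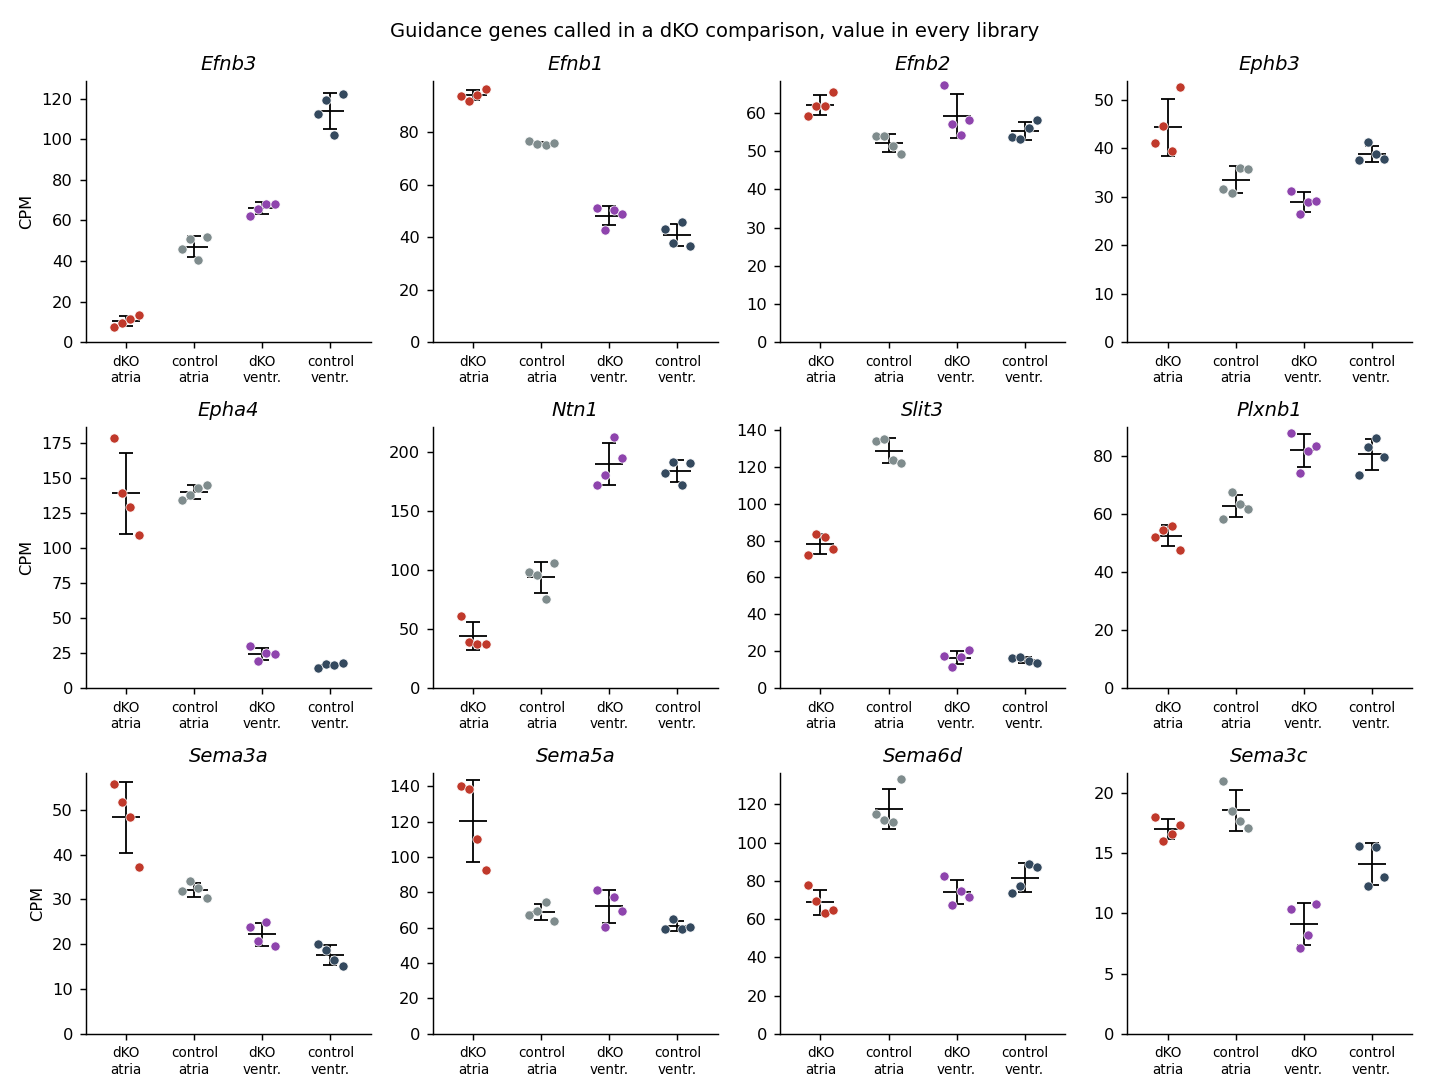
CPM of the 12 guidance genes called in a dKO comparison, in every library (points), with the mean and SD of 4 libraries per group. Groups run from dKO atria, control atria and dKO ventricles to control ventricles, and every vertical axis starts at 0. Efnb3 spans 7.58 to 13.1 CPM in dKO atria and 102 to 122 CPM in control ventricles.

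Among the receptors of ephrins, Ephb3, which binds ephrin-B ligands, was the 1 of 5 EphB genes called in dKO atria. It stood at 41.0, 44.5, 39.3 and 52.5 CPM in dKO atria, against 31.6, 30.7, 36.0 and 35.7 CPM in control atria. Every dKO atrium lay above every control atrium, and the log2 difference was 0.39 ± 0.09 (limma adjusted p = 0.0283). That call was lost without dKO replicate 2 or control replicate 1 or 2 (log2 difference 0.31 to 0.44 over all leave-outs). Ephb4, the ephrin-B2 receptor of veins, averaged 153 ± 7.64 CPM in dKO atria and 145 ± 3.94 CPM in control atria (SD, n = 4 each) and was not called. None of the 6 EphA or 4 ephrin-A genes was called in atria by limma, though 1 gene of each class had an unadjusted p under 0.05. edgeR called none of them and DESeq2 called 1, Efna5, at 31.8 ± 1.02 CPM in dKO atria and 25.6 ± 3.08 CPM in control atria (SD, n = 4 each). Under alternatives limma did call some of these genes. Without dKO replicate 4 it called Epha7 higher (log2 difference 0.32, adjusted p = 0.0169) and Epha3 lower (-0.65, adjusted p = 0.0138). With a filter at a mean of 5 CPM limma called Efna5 higher (0.31, adjusted p = 0.0488). Efna5 was also called over all 16 libraries with embryo as a block (0.31, limma adjusted p = 0.0397). Epha4 averaged 139 ± 28.9 CPM in dKO atria and 139.7 ± 5.02 CPM in control atria.

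In the netrin family, Ntn1, a secreted laminin-related ligand, fell in dKO atria (ENSMUSG00000020902; chr11:68209364-68400823 on GRCm38, minus strand). It stood at 61.3, 39.2, 37.4 and 37.4 CPM in dKO atria, against 98.4, 95.8, 75.6 and 106 CPM in control atria. dKO atrium 1 was the highest of its group but still under every control, and the log2 difference was -1.10 ± 0.15 (limma adjusted p = 0.00130). Ntn4, a netrin of basement membranes, averaged 4.19 ± 0.507 CPM in dKO atria and 4.92 ± 2.39 CPM in control atria (SD, n = 4 each) with overlapping groups. Of the 4 netrin receptors tested none was called in atria by limma, edgeR or DESeq2, and 1 had an unadjusted limma p under 0.05. With title number as a covariate limma called Unc5b higher (log2 difference 0.30, adjusted p = 0.0167), as it did among the embryos of the balanced title number alone (0.37, adjusted p = 0.0207). Unc5b averaged 145 ± 24.4 CPM in dKO atria and 121 ± 6.01 CPM in control atria, and Neo1 139.8 ± 12.1 CPM in dKO and 150.3 ± 2.36 CPM in control. Ntn1 and Efnb3 both lie on chromosome 11, 1.15 megabases apart. This interval was looked at after their values were seen: of the 25 tested genes between them 1 was called lower and 0 higher in dKO atria, with a median log2 difference of -0.01.

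Slit3, a secreted Robo ligand, fell in dKO atria as well. It stood at 72.3, 83.7, 81.9 and 75.2 CPM in dKO atria, against 134, 135, 124 and 122 CPM in control atria. The groups lay far apart relative to their spread, with a log2 difference of -0.71 ± 0.06 (limma adjusted p = 5.63e-05). Slit2, the other Slit listed, averaged 74.5 ± 10.97 CPM in dKO atria and 57.5 ± 4.85 CPM in control atria (SD, n = 4 each). Its groups overlapped and it was not called (log2 difference 0.36, limma adjusted p = 0.0576), though it was called under 6 of 19 alternatives. Slit3 thus made up 81.5% ± 2.02 of the Slit level per kilobase in dKO atria and 90.4% ± 0.395 in control atria. The size of these shares depends on the merged exon lengths, 6067 bases for Slit3 and 25433 for Slit2. None of the 3 Robo receptors was called in atria by limma, while edgeR called 1 (Robo4) and DESeq2 called 2 (Robo2 and Robo4). All 3 had an unadjusted limma p under 0.05, with log2 differences of 0.30 to 0.39. Robo4, an endothelial Robo, stood at 13.4 ± 0.959 CPM in dKO atria and 10.7 ± 0.404 CPM in control atria with no overlap (limma adjusted p = 0.0555). It was called under 5 of 19 alternatives, edgeR and DESeq2 among them.

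**Figure D4:**
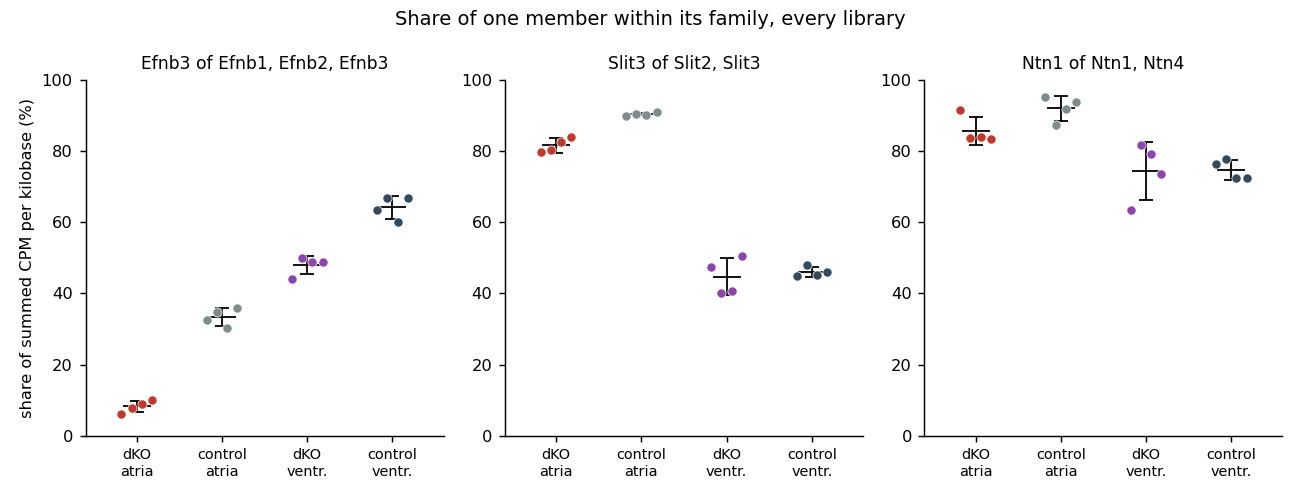
Share of Efnb3 among the 3 ephrin-B genes, of Slit3 among the 2 Slits and of Ntn1 among Ntn1 and Ntn4, in percent of summed CPM per kilobase of exon, in every library (points), with mean and SD of 4 libraries. The Efnb3 share lies at 6.23% to 9.91% in dKO atria and 30.3% to 35.8% in control atria, and at 44.2% to 49.8% in dKO ventricles and 59.9% to 66.8% in control ventricles.

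Of the 19 semaphorins 3 were called in dKO atria. Sema6d, a transmembrane semaphorin studied in heart morphogenesis of the chick, stood at 77.9, 69.6, 63.3 and 64.6 CPM in dKO atria, against 115, 112, 111 and 133 CPM in control atria. It fell with no overlap between groups, at a log2 difference of -0.77 ± 0.08 (limma adjusted p = 0.000165). Sema5a, a transmembrane semaphorin with thrombospondin repeats, stood at 140.2, 138, 109.9 and 92.5 CPM in dKO atria, against 67.1, 69.3, 74.4 and 63.7 CPM in control atria. It rose in every dKO atrium, with the wider spread among dKO libraries, and the log2 difference was 0.78 ± 0.12 (limma adjusted p = 0.00223). Sema3a, a secreted repellent that acts through Nrp1 and patterns cardiac sympathetic nerves in mice, stood at 55.8, 51.7, 48.5 and 37.3 CPM in dKO atria, against 31.8, 34.0, 32.5 and 30.3 CPM in control atria. It also rose without overlap, at a log2 difference of 0.56 ± 0.11 (limma adjusted p = 0.00879). Sema3d, a secreted semaphorin with a role in pulmonary vein patterning, averaged 60.6 ± 4.18 CPM in dKO atria and 48.3 ± 6.37 CPM in control atria (SD, n = 4 each). Its groups did not overlap, but it missed the threshold (log2 difference 0.33, limma adjusted p = 0.0584), which it passed under 4 of 19 alternatives, DESeq2 among them. Sema3c averaged 17.0 CPM in dKO atria and 18.5 CPM in control atria with overlapping libraries. Sema7a was called higher in dKO atria under 3 of 19 alternatives, among them limma with title number as a covariate (log2 difference 0.63, adjusted p = 0.0272). With that covariate limma also called Sema4d lower (-0.26, adjusted p = 0.0339).

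The plexins and neuropilins had log2 differences from -0.25 (Plxnb1) to 0.18 (Plxna3) in dKO atria. Plxnb1, the receptor of Sema4d, was the 1 of 9 plexins called, at 52.1, 54.6, 56.1 and 47.8 CPM in dKO atria, against 58.5, 67.9, 63.5 and 61.98 CPM in control atria. Its groups did not overlap, with a log2 difference of -0.25 ± 0.07 (limma adjusted p = 0.0427), but the call was lost under 9 of 19 alternatives, among them every leave-out but that of control replicate 1. Another of these 9 was the balanced title number alone, with a log2 difference of -0.18 (limma adjusted p = 0.239). Exons of Plxnb1 share 257 bases with Gm7628 on the opposite strand, and use of strand is not given in the sources used here. Plxnd1 averaged 296 ± 39.7 CPM in dKO atria and 285 ± 10.1 CPM in control atria, and Plxnb2 236 ± 14.8 CPM in dKO and 257 ± 16.2 CPM in control (SD, n = 4 each). Plxna2, a receptor for class 3 and class 6 semaphorins, averaged 46.1 ± 6.69 CPM in dKO atria and 41.0 ± 2.996 CPM in control atria. Without dKO replicate 4 limma called Plxna2 higher (log2 difference 0.26, adjusted p = 0.0444). With title number as a covariate limma called Plxna1 lower (-0.23, adjusted p = 0.0319). Nrp1, the shared co-receptor of class 3 semaphorins and VEGF, averaged 95.0 ± 16.5 CPM in dKO atria and 99.5 ± 9.84 CPM in control atria, and neither neuropilin was called by limma, edgeR or DESeq2 or had an unadjusted limma p under 0.05.

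Promoter sequence was read for the called members that the RefSeq promoter table lists, to show the upstream region of genes that moved in opposite directions. Meis proteins are known to recognise the hexamer TGACAG, and this hexamer was searched on both strands in the 250 bases before each start that the table lists. It occurred in 15.9% of 32851 listed promoters and in 14.7% of the 68 promoters of guidance genes, which cover 53 of the genes. Of the 10 called members with a listed promoter 1 held it, namely Efnb2. Efnb3 and Ntn1 have no entry. The regions upstream of the start (GRCm38.p6, 5′ to 3′ on the gene's strand) follow for Efnb2 (chr8:8661243-8661492, minus strand), for Ephb3 (chr16:21204545-21204754, plus strand), which had opposite calls in the 2 chambers, and for Sema6d (chr2:124089719-124089968, plus strand), which was called lower in dKO atria. The Ephb3 window is printed without its last 40 bases, which lie inside the GENCODE gene, and of the 2 promoters listed for Sema6d, neither of which held the hexamer, the upstream one is printed. Capitals mark the hexamer or its reverse complement, and a match is a description of the letters only.
Efnb2: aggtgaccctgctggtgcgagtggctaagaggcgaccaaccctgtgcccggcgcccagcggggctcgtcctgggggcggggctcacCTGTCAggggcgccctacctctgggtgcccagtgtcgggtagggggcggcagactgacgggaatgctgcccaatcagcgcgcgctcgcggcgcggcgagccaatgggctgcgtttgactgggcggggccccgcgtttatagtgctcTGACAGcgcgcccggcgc
Ephb3: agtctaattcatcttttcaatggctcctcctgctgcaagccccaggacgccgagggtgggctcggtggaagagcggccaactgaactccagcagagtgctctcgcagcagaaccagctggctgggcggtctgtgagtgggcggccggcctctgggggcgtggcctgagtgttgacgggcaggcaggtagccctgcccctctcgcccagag
Sema6d: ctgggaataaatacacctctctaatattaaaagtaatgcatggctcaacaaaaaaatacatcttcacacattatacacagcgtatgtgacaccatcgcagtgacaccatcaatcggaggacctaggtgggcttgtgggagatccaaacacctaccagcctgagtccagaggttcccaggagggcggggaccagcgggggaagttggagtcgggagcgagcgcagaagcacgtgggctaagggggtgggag
In Efnb2 the reverse complement began 164 bases and the hexamer 18 bases before the end of the window, and the windows of Ephb3 and Sema6d held neither.

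In dKO ventricles fewer guidance genes were called, and Efnb3 again had the smallest adjusted p among them. Efnb3, Ephb3 and Sema3c fell and Epha4 rose. Of 59 members 4 (6.78%) were called, 1 higher and 3 lower, against 2.0% of all genes, 0.989% higher and 1.01% lower. The median log2 difference over the members was 0.02, against -0.02 over all genes. In 7 members (11.9%) the groups did not overlap, 2 with dKO above and 5 below every control, against 8.11% of all genes. The other 55 members had log2 differences from -0.30 (Efna2) to 0.33 (Unc5a).

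Efnb3 stood at 62.001, 65.6, 68.0 and 68.2 CPM in dKO ventricles, against 112, 119, 102 and 122 CPM in control ventricles. Every dKO ventricle lay below every control, and the log2 difference was -0.78 ± 0.06 (limma adjusted p = 3.77e-05). Ephb3 stood at 31.2, 26.3, 28.8 and 29.1 CPM in dKO ventricles, against 37.5, 41.2, 38.7 and 37.7 CPM in control ventricles. It fell without overlap, at a log2 difference of -0.41 ± 0.07 (limma adjusted p = 0.00495), the opposite direction to its atrial call. Among the embryos of the balanced title number alone its log2 difference was -0.50 and the call was lost (adjusted p = 0.0777). Epha4, which binds both ephrin-A and ephrin-B ligands, stood at 29.6, 19.4, 24.7 and 23.98 CPM in dKO ventricles, against 14.2, 17.1, 16.02 and 17.5 CPM in control ventricles. It rose without overlap (log2 difference 0.55 ± 0.12, limma adjusted p = 0.0283). Sema3c, a neuropilin-binding semaphorin needed for outflow tract septation, stood at 10.3, 7.12, 8.19 and 10.7 CPM in dKO ventricles, against 15.6, 12.3, 15.498 and 12.98 CPM in control ventricles. It fell without overlap (log2 difference -0.59 ± 0.13, limma adjusted p = 0.0447). The calls of Epha4 and Sema3c were both lost with no filter on low genes and among the embryos of the balanced title number alone (log2 differences 0.47 and -0.78). Epha4 was also lost without dKO replicate 1, 3 or 4 or control replicate 1, 2 or 3, and Sema3c under every leave-out but that of dKO replicate 4.

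Of the 10 guidance genes called in atria, 8 were not called in ventricles. Ntn1 averaged 190.0 ± 17.7 CPM in dKO ventricles and 184 ± 9.17 CPM in control ventricles, Slit3 16.5 ± 3.69 CPM in dKO and 15.2 ± 1.55 CPM in control, and Sema6d 74.1 ± 6.35 CPM in dKO and 81.7 ± 7.45 CPM in control (SD, n = 4 each). Libraries of the groups overlapped for these genes. Sema5a stood at 60.4 to 81.3 CPM in dKO ventricles and 59.1 to 64.7 CPM in control ventricles, Sema3a at 19.5 to 24.9 CPM in dKO and 15.1 to 19.9 CPM in control, and Efnb1 at 42.9 to 51.1 CPM in dKO and 36.8 to 45.9 CPM in control. Their log2 differences were 0.23, 0.32 and 0.24, none of them called by limma (adjusted p = 0.223, 0.187 and 0.205). The well represented receptors also overlapped, with Plxnd1 at 275 ± 7.58 CPM in dKO ventricles and 276 ± 8.19 CPM in control ventricles, Ephb4 at 116 ± 5.65 CPM in dKO and 121 ± 7.79 CPM in control, and Nrp1 at 127 ± 12.8 CPM in dKO and 123 ± 0.872 CPM in control. Plxna2 averaged 48.8 ± 5.23 CPM in dKO ventricles and 41.2 ± 2.35 CPM in control ventricles, and Sema3d 21.7 ± 1.98 CPM in dKO and 22.9 ± 2.50 CPM in control, neither of them called by limma. Plxna2 and Sema5a were called in ventricles by DESeq2 (adjusted p = 0.0471 and 0.0463) and by limma without dKO replicate 2 (adjusted p = 0.0465 and 0.0295), each higher in dKO. Robo1 was called higher there by DESeq2 (log2 difference 0.24, adjusted p = 0.0338) and by limma without control replicate 3 (0.29, adjusted p = 0.0298).

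Whether the dKO effect differed between chambers was tested directly, as the effect in ventricles minus that in atria over all 16 libraries with embryo as a block. Of 59 members 5 (8.47%) were called, 4 higher and 1 lower, against 2.64% of all genes, 1.31% higher and 1.33% lower. The median over the members was -0.04, against -0.01 over all genes. Efnb3 fell in both chambers and fell more in atria, with a difference of the log2 effects of 1.31 ± 0.15 (limma adjusted p = 3.20e-05). Ntn1 differed by 1.14 ± 0.17 (limma adjusted p = 0.000677), Slit3 by 0.80 ± 0.16 (adjusted p = 0.00705) and Sema6d by 0.63 ± 0.11 (adjusted p = 0.00185). For each of these genes the log2 dKO effect was the more negative in atria. Ephb3 was the 1 gene with a negative difference, -0.80 ± 0.11 (adjusted p = 0.000271), being higher in dKO atria and lower in dKO ventricles. Among the embryos of the balanced title number alone the differences were 1.32 for Efnb3, 1.39 for Ntn1, 0.68 for Sema6d and -0.91 for Ephb3, all called, while Slit3 stood at 0.46 and was not called (adjusted p = 0.288). For Sema5a the difference was -0.55 (adjusted p = 0.0558) and for Epha4 0.58 (adjusted p = 0.0625), neither past the threshold by limma. Each passed under 5 of 19 alternatives, Sema5a with DESeq2 (adjusted p = 0.00630) and Epha4 with edgeR (adjusted p = 0.0120) and DESeq2 (adjusted p = 0.000112). With title number as a covariate in limma the adjusted p was 0.0303 for Sema5a and 0.0122 for Epha4.

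More guidance genes were called between chambers than between genotypes, in a fit that used all 16 libraries. In control hearts 43 of 59 members (72.9%) differed between ventricles and atria, 20 higher and 23 lower in ventricles, against 46.9% of all genes, 26.4% higher and 20.5% lower. All 3 Robos and both netrins tested were higher in ventricles, while 4 of 6 EphA receptors were lower and none higher. Among ligands, Sema7a, a membrane-anchored semaphorin, averaged 24.6 ± 3.01 CPM in control ventricles and 2.71 ± 0.485 CPM in control atria (log2 difference 2.79 ± 0.14), and Ntn4 37.1 ± 5.13 CPM in ventricles and 4.92 ± 2.39 CPM in atria (2.76 ± 0.23; SD, n = 4 each). Sema3g and Sema3b, both secreted class 3 semaphorins, were higher in ventricles by 1.78 ± 0.13 and 1.65 ± 0.15, Efnb3 by 1.26 ± 0.11 and Ntn1 by 0.97 ± 0.12. Of the receptors Robo1 was higher by 1.90 ± 0.12 and Robo4 by 1.003 ± 0.08. All of these were called, with limma adjusted p of 3.22e-06 (Ntn1) or lower. At the other end, Epha4 averaged 16.2 ± 1.49 CPM in control ventricles and 139.7 ± 5.02 CPM in control atria (log2 difference -3.04 ± 0.11), and Slit3 15.2 ± 1.55 CPM in ventricles and 129 ± 6.76 CPM in atria (-3.01 ± 0.11), both with an adjusted p of 2.59e-13. Sema3d (-1.04), Sema4d (-0.94) and Efnb1 (-0.88) were the next ligands lower in ventricles. The receptors Unc5a (-1.42; its exons overlap Hk3 on the opposite strand), Ephb6 (-0.88) and Plxna4 (-0.88) were lower as well, and the calls of all 16 genes named here were kept under each alternative that could be fitted. Sizes of low genes depended on the setting. Unc5a, at 1.33 CPM in control ventricles and 4.99 CPM in control atria, ran from -2.11 to -0.66 over alternatives. Ephb6 ran from -1.14 to -0.50 and Sema3g from 1.09 to 2.13.

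In dKO hearts 42 of 59 members (71.2%) differed between ventricles and atria, 16 higher and 26 lower, against 49.1% of all genes, 26.5% higher and 22.5% lower. In both genotypes 15 members were called higher and 22 lower in ventricles. Efnb3 differed between ventricles and atria by 2.57 ± 0.11 in dKO hearts and 1.26 ± 0.11 in control hearts, and Ntn1 by 2.12 ± 0.12 in dKO and 0.97 ± 0.12 in control. Slit3 differed by -2.21 ± 0.11 in dKO hearts and -3.01 ± 0.11 in control hearts, so its chamber difference was smaller in dKO. Sema6d showed no called chamber difference in dKO hearts (0.11 ± 0.08, limma adjusted p = 0.266), against -0.52 ± 0.08 in control hearts (adjusted p = 1.59e-05). Ephb3 was lower in ventricles in dKO hearts (-0.60 ± 0.08) and higher in ventricles in control hearts (0.21 ± 0.08, adjusted p = 0.0365). The tests of these 5 differences between genotypes are those of the preceding comparison of chambers.

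**Figure D5:**
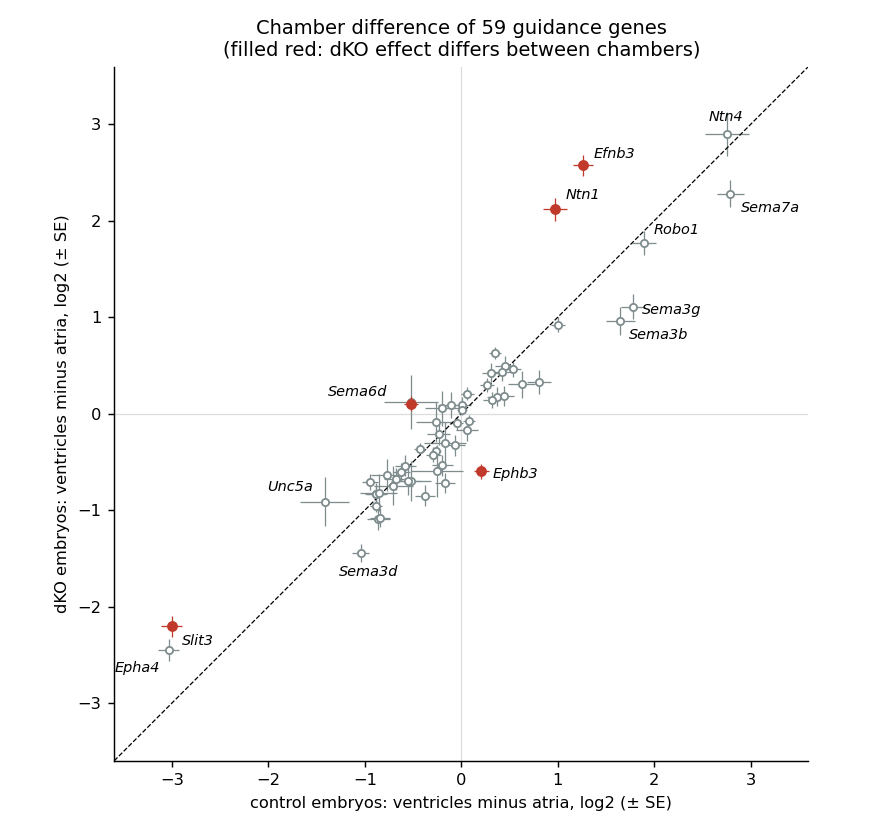
log2 difference of CPM + 1 between ventricles and atria in dKO embryos (vertical axis) and in control embryos (horizontal axis) for 59 guidance genes, with bars of 1 standard error and the line of equality. Filled red points are the 5 genes whose dKO effect differed between chambers. Efnb3 lies at 2.57 in dKO and 1.26 in control, and Ephb3 at -0.60 in dKO and 0.21 in control.

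The 3 members under the filter were netrin family genes. Unc5d stood at 1.43 to 2.53 CPM in dKO atria and 1.295 to 1.795 CPM in control atria, and at 0.0955 to 0.535 CPM in dKO ventricles and 0.0233 to 0.201 CPM in control ventricles, so its atrial level was above that of ventricles in every library. Ntng2, a membrane-anchored netrin-G, stood at 0.777 to 1.71 CPM in dKO atria and 0.640 to 0.937 CPM in control atria, and at up to 0.414 CPM in dKO ventricles and 0.536 CPM in control ventricles. Dcc, the classical netrin receptor, stood at 0.136 to 0.275 CPM in dKO atria and 0.0199 to 0.375 CPM in control atria, and at 0.422 to 1.07 CPM in dKO ventricles and 0.658 to 1.19 CPM in control ventricles. The deposited CPM count 0.5 read on top of each whole read number, so the lowest of these values, 0.0233 for Unc5d and 0.0199 for Dcc, stand for libraries with 0 reads. Values under the floor of 3 reads, 0.110 to 0.312 CPM, give no order between groups.

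Among 55 tested genes that act with these families, in 5 lists, limma called 5 in atria (9.09%, 2 higher and 3 lower, against 7.47% of all genes) and 5 in ventricles (9.09%, 4 higher and 1 lower, against 2.0% of all genes). The lists were chosen with earlier results of these data known, so these shares describe the lists only. Of 16 semaphorin effectors 1 was called in ventricles by limma, Dpysl3, a collapsin response mediator, at a log2 difference of 0.26 (adjusted p = 0.0146). In atria limma, edgeR and DESeq2 called 0 of the 16, and 0 had an unadjusted limma p under 0.05. Of 13 ephrin effectors tested 1 was called in each chamber, the Rap GTPase-activating protein Sipa1l1, lower in dKO atria (-0.59) and in dKO ventricles (-0.39). Of 10 Slit and Robo partners, the Slit-binding glypican Gpc1 was higher in dKO atria (0.26) and in dKO ventricles (0.25), and the actin regulator Enah was lower in dKO atria (-0.22). Of 9 netrin receptor partners tested, Rgma, a ligand of neogenin, rose in dKO atria (0.75 ± 0.12, limma adjusted p = 0.00243), and the Unc5 ligands Flrt2 (0.31) and Flrt3 (0.48) rose in dKO ventricles. The Rgma effect differed between chambers by -0.99 ± 0.17 (adjusted p = 0.00194). Of 7 VEGF partners of neuropilins the receptor Kdr was lower in dKO atria (-0.23, adjusted p = 0.0283). In ventricles limma, edgeR and DESeq2 called 0 of the 7, and 1 had an unadjusted limma p under 0.05. The effect on Vegfc differed between chambers by -0.58 (adjusted p = 0.0437), with log2 differences of -0.23 in ventricles and 0.36 in atria, neither called on its own, and edgeR and DESeq2 did not call it. Median log2 differences of the 5 lists lay between -0.0034 and 0.12 in atria and between -0.05 and 0.06 in ventricles.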

How the data were processed

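RNA was measured in 16 libraries, 1 atrial and 1 ventricular library from each of 8 separate embryos. Trimming used cutadapt, and quantification RSEM 1.3.1 on GRCm38, per the submitters' processing notes. The deposited values are CPM, normalized by the authors; the normalization method, gene filter, annotation release and strandedness of counting were not given in the sources used here. Every CPM value equalled a whole read number plus 0.5, multiplied by 1 step per library (100% of values within 0.001), and these recovered reads gave depths and counting floors, which cover counting error only.

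Genes averaging 1 CPM or more, 13950 in all, were fitted as log2(CPM + 1) with limma 3.58.1 (R 4.3.3; moderated two-sided test, variance trended on the mean, Benjamini-Hochberg over all genes tested). Differences are on this scale, which understates changes of low genes. Each chamber's dKO comparison used its 8 libraries. Chamber differences and the difference of the dKO effect used all 16 libraries with embryo as a block, since both chambers come from 1 animal (consensus correlation 0.108); replicate numbers were given in accession order and pair no genotypes. Over all genes limma called 1042 genes in atria and 279 in ventricles. On the recovered reads edgeR 4.0.16 called 1031 and 259 genes, and DESeq2 1.42.0 called 1546 and 469. The scripts were tested on simulated data.

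The members, lists and tests were chosen with earlier results of these data known. Named genes were all members called in a dKO test, the 8 largest chamber differences each way in controls, the 2 highest members per class by CPM per kilobase, and 9 genes with known roles in heart or vessels: Efnb2, Efnb3, Sema3c, Sema3d, Nrp1, Plxna2, Plxnd1, Ephb4 and Slit3. Lengths and coordinates came from GENCODE M21 (GRCm38; 16096 of 16118 IDs matched), promoters from RefSeq (GRCm38.p6). Exons of Unc5a, Sema4c, Epha1 and Plxnb1 overlap another listed gene on the opposite strand, and those of Ntng2 one on the same strand, so their values are uncertain. Alternatives were other pseudocounts, filters and scalings, edgeR and DESeq2, title number as a covariate or 1 title number alone, other uses of the embryo block, and leaving out each embryo.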

Additional observations from a re-analysis of the deposited data

Results flagged for a closer look

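In the groups of 4 libraries of the 12 guidance genes called in a dKO comparison, 1 of 48 groups held a library that stood apart. Ntn1 was at 61.3 CPM in dKO atrium 1 and at 37.4 to 39.2 CPM in the other dKO atria. The gap to its nearest neighbour was 0.924 of the group's range, past Dixon's limit for a group of this size. Chance alone marks about 1 in 20 such groups. dKO atrium 1 came from the only embryo of its title number, with no control beside it, so embryo and title number cannot be told apart. Without that embryo Ntn1 kept its call in atria.

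The dKO effect differed between ventricles and atria, by a direct test, for 5 guidance genes. The difference of the log2 effects was 1.31 for Efnb3, which was lower in dKO in both chambers, and 1.14 for Ntn1, 0.80 for Slit3 and 0.63 for Sema6d, which were called lower in dKO atria only. It was -0.80 for Ephb3, which was called lower in dKO ventricles and higher in dKO atria.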

How the results depend on the processing

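None of the called genes and counts recomputed changed direction under an alternative. In ventricles the count of called guidance genes, 4, became 2 with no filter, 7 with DESeq2 on recovered reads and 1 among the embryos of the balanced title number alone, and ranged from 2 to 5 when each embryo was left out (2 without dKO replicate 1 or 3 or control replicate 1 or 2). In atria the count of 10 ranged from 7 to 15 over leave-outs, with 15 without dKO replicate 4, and from 9 to 15 otherwise. The count of 5 for the difference between chambers ranged from 5 to 7 and from 4 to 7, that of 43 for control chambers from 38 to 44 and from 37 to 46, and that of 42 for dKO chambers from 39 to 44 and from 37 to 45. Calls kept under all 19 alternatives were Efnb1, Efnb3, Ntn1, Sema3a, Sema5a, Sema6d and Slit3 in atria, Efnb3 in ventricles, and Efnb3, Ephb3, Ntn1 and Sema6d for the difference between chambers. With no replicate block the last 3 counts were 5, 42 and 42, and with the embryo as replicate block over all 16 libraries atria gave 15 calls and ventricles 4. The other title numbers hold 1 dKO embryo each, too few for a test within them. Depth limits Dcc, Ntng2 and Unc5d, whose lowest values lie at or under the floor of 3 reads, and dKO ventricles were all shallower than control ventricles. The cause of these shifts was not tested.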
